A study of Mus musculus with 2 samples.

Results

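The 10 genes described here carry out or control antigen presentation by MHC class II molecules in the mouse: the chain genes H2-Aa, H2-Ab1 and H2-Eb1, the invariant chain gene Cd74, the peptide exchange genes H2-DMa, H2-DMb1 and H2-DMb2, the exchange modulator genes H2-Oa and H2-Ob, and the transactivator gene Ciita. They were taken by symbol from the gene lists of 2 single-cell RNA libraries, and all 10 were among the 32245 symbols listed there. The Tdg_KO library carries the genotype label Tdg KO and the Tdg_WT library the genotype label WT. The product of Tdg, thymine DNA glycosylase, takes mismatched thymine and oxidised methylcytosine out of DNA, and the series title names p53-deficient cancer as its setting. Each library was made from live CD45+ cells, that is, white blood cells, sorted from subcutaneous KP tumours of mice on day 14 after inoculation, with RNA read at its 3′ end. The labels do not say whether the tumour cells, the host or both carry the genotype, and they do not give the mouse strain. Each group has a single library (1 each), which allows no test between them. All intervals are exact, at 95%, and cover counting error only. Differences between mice, tumours and preparations cannot be told apart from the genotype.

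MHC class II molecules are pairs of an alpha and a beta chain that show peptides from the endosome to CD4 T cells. The invariant chain escorts the new chains and fills their groove, DM takes its last fragment out so that peptides can bind, and DO holds DM back, in B cells above all. Ciita is the transactivator that is brought to class II promoters by a complex of RFX, CREB and NF-Y proteins. Dendritic cells, macrophages and B cells are the main cells that present in this way, and interferon gamma raises most class II genes in many other cells. Mouse T cells and NK cells make little class II.

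The promoter motifs that Ciita works through are shown because 4 of the 7 members with a promoter entry hold them as a pair. RefSeq promoters of GRCm38.p6, each with 250 bases before and 50 bases after a start site, were found for 7 of the 10 members, in 8 promoters, all on chromosome 17. H2-Ab1, Cd74 and Ciita had no entry and are named only. An X-type motif, AACNNNTGA, and a Y-type motif, the NF-Y letters TGATTGG, were searched on both strands. The windows are printed 5′ to 3′ along the gene's strand, with the motifs in capitals.
H2-Eb1: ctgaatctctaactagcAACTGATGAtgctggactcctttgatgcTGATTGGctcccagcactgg
H2-DMb1: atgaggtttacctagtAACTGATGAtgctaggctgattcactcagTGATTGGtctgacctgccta
H2-DMb2: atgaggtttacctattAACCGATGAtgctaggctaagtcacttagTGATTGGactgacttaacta
H2-Ob: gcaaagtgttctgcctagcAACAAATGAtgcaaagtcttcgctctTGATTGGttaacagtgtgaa
H2-Aa: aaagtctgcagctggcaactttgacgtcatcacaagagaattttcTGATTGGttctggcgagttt
H2-Oa: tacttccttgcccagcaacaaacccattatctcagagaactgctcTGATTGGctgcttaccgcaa

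These windows lie at chr17:34305761-34305825 (+) for H2-Eb1, chr17:34153083-34153147 (+) for H2-DMb1, chr17:34145112-34145176 (+) for H2-DMb2, chr17:34238801-34238865 (+) for H2-Ob, chr17:34287854-34287918 (−) for H2-Aa and chr17:34092289-34092353 (+) for H2-Oa. In H2-Eb1, H2-DMb1, H2-DMb2 and H2-Ob the X-type motif stood before the Y-type motif, with 19, 20, 20 and 17 bases between them. In these letters, only the Y-type motif was found in H2-Aa and H2-Oa, and neither motif in the 2 promoters of H2-DMa. Those 2 promoters lay at chr17:34122582-34122881 and chr17:34125268-34125567, inside the span of H2-DMa in the GENCODE annotation given below. Over all 32851 promoters of the table, 11.9% held the X-type motif and 7.82% the Y-type motif. The pair in that order, with 10 to 30 bases between, was held by 21 promoters (0.0639%), of which 4 were those printed. A match describes these letters and is not a measured binding site. A promoter without a match may hold such a motif in other letters, which were not searched.

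In mm10 coordinates of the GENCODE annotation, H2-Oa (chr17:34092340-34095234), H2-DMa (chr17:34119541-34139101), H2-DMb2 (chr17:34143307-34151555), H2-DMb1 (chr17:34153072-34160230), H2-Ob (chr17:34238903-34254414), H2-Ab1 (chr17:34257689-34269419), H2-Aa (chr17:34282744-34287823) and H2-Eb1 (chr17:34305867-34316674) follow each other on chromosome 17. Cd74 (chr18:60803848-60812652) and Ciita (chr16:10480059-10528418) lie elsewhere. All 10 are protein-coding, and only H2-Aa is on the minus strand.

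The Tdg_KO library held 52586319 UMIs (unique molecular identifiers, 1 for each RNA molecule counted) in 5896 barcodes, and the Tdg_WT library 39819010 UMIs in 5604 barcodes. After filtering, 5693 Tdg_KO cells and 5504 Tdg_WT cells remained, with medians of 6419 and 5378 UMIs. Tdg had 26.5 CPM in Tdg_KO and 25.1 CPM in Tdg_WT, and since 3′ tags need not lie in a deleted part, this neither checks nor contradicts the label. Clusters made without the 10 members were named from marker genes, and 15 cell types had at least 30 cells in each library. Marker genes stood with the names: C1qa was detected in 89.3% and 79.9% of macrophage-like barcodes, Xcr1 in 71.9% and 54.2% of cDC1-like, Cd79a in 100% and 99.3% of B-like and Ncr1 in 70.0% and 68.2% of NK-like barcodes of Tdg_KO and Tdg_WT. Barcodes with at least 3 genes of each of 2 lineages made up 12.0% of Tdg_KO and 6.38% of Tdg_WT. Clusters without a name held 21.4% of Tdg_KO cells and 14.6% of Tdg_WT cells. The doublet caller marked 0 barcodes in both libraries, so it did not work here and no doublets were removed. The libraries share 8 barcode sequences.

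The 10 class II genes together gave 405060 UMIs in Tdg_KO and 260266 in Tdg_WT, or 0.775% and 0.657% of all UMIs. Levels below are CPM, UMIs per 1000000 UMIs of that cell type and library, and every ratio is Tdg_KO over Tdg_WT. The 6 antigen-presenting types (macrophage-, cDC1-, cDC2-, B-, migratory DC- and monocyte-like) held 62.3% of the class II UMIs in Tdg_KO and 78.2% in Tdg_WT. Clusters without a name held most of the rest, 33.3% in Tdg_KO and 17.5% in Tdg_WT. Of these, 3 clusters made up mostly of mixed-lineage barcodes held 26.9% of the class II UMIs in Tdg_KO and 13.1% in Tdg_WT, in 446 and 211 barcodes.

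The summed level spanned more than 2 orders of magnitude between cell types. Macrophage-like cells had 55795 CPM in Tdg_KO and 35456 CPM in Tdg_WT, and cDC1-like cells, the dendritic cells that cross-present to CD8 T cells, had 43698 CPM in Tdg_KO and 46461 CPM in Tdg_WT. Then came cDC2-like cells (26593 CPM in Tdg_KO, 28331 CPM in Tdg_WT), B-like cells (18197 and 17701 CPM), migratory DC-like cells, marked by Ccr7 and Fscn1 (11511 and 13039 CPM), and monocyte-like cells (8345 and 9447 CPM). The order of macrophage- and cDC1-like cells was not the same in the libraries, and with 1 library per group their places cannot be separated. Plasmacytoid DC-like cells, too few in Tdg_WT to be compared (52 and 25 cells), had 7203 CPM in Tdg_KO and 5366 CPM in Tdg_WT.

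Below these came neutrophil-like cells with 2354 CPM in Tdg_KO and 1170 CPM in Tdg_WT, then basophil-like cells with 1543 and 377.8 CPM and ILC2-like cells (group 2 innate lymphoid cells) with 885.6 and 815.0 CPM. The 6 T and NK types lay between 164.9 and 498.4 CPM in Tdg_KO and between 166.8 and 556.4 CPM in Tdg_WT. Naive T-like cells were the lowest in each library, at 164.9 CPM in Tdg_KO and 166.8 CPM in Tdg_WT, with a ratio of 0.988 (0.829 to 1.18). H2-Ob made up 12.3% of that sum in Tdg_KO and 17.7% in Tdg_WT, so it is no level of cells that lack all 10 genes, and only barcodes called as cells were analysed here.

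**Figure D1:**
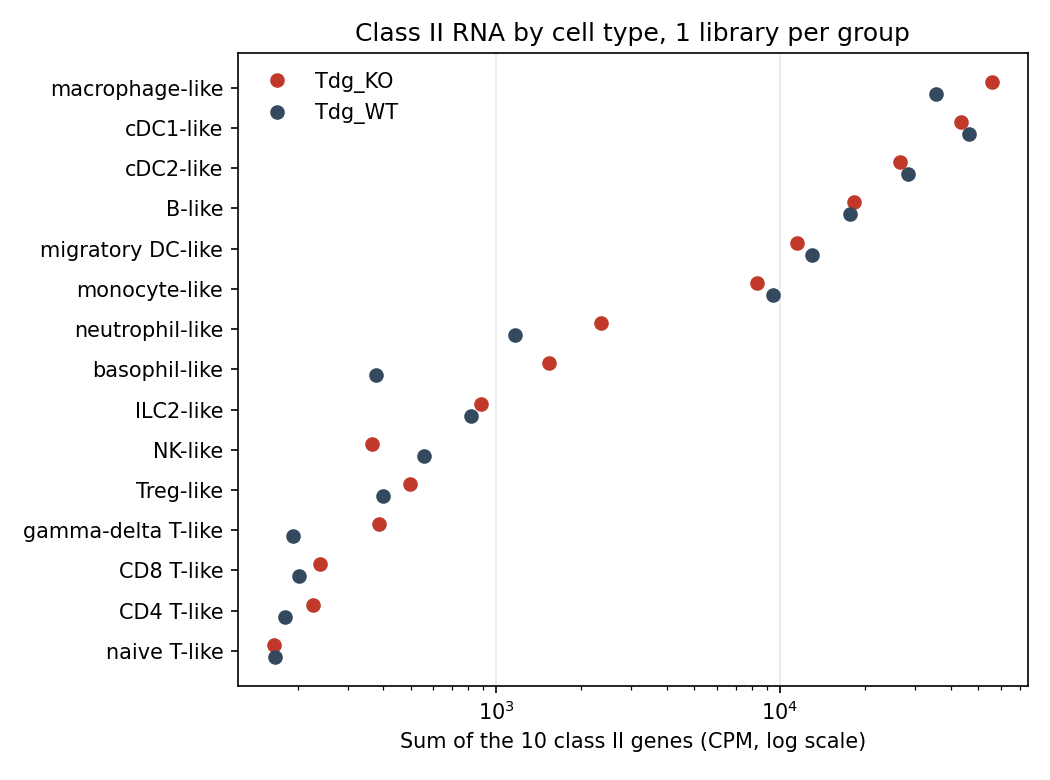
Summed level of the 10 class II genes in CPM (log axis) for the 15 cell types compared, with Tdg_KO above Tdg_WT in each row; each point is 1 library. The macrophage-like points (55795 and 35456 CPM) stand apart from each other, while the naive T-like points (164.9 and 166.8 CPM) nearly coincide.

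After Cd74, the chain genes H2-Aa, H2-Ab1 and H2-Eb1 were the members with the most UMIs in each of the 6 antigen-presenting types. In macrophage-like cells they had 9344, 10798 and 8544 CPM in Tdg_KO, against 5980, 7020 and 5418 CPM in Tdg_WT. In cDC1-like cells the values were 7606, 10242 and 6738 CPM in Tdg_KO and 7278, 11164 and 7124 CPM in Tdg_WT. B-like cells had 3295, 3021 and 2262 CPM in Tdg_KO and 3196, 2934 and 2376 CPM in Tdg_WT. Counts of 3′ tags are not corrected for how well each gene's end is captured, so levels of different genes are set side by side here only as measured.

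Cd74, the invariant chain gene, had more UMIs than any other member in all 15 types of each library. It reached 25100 CPM in Tdg_KO and 15628 CPM in Tdg_WT in macrophage-like cells, and 17221 CPM in Tdg_KO and 18980 CPM in Tdg_WT in cDC1-like cells. Per 100 UMIs of the 3 chain genes together, Cd74 had between 69.0 and 97.7 UMIs over the 6 antigen-presenting types of both libraries. B-like cells were at the top of that range, with 97.7 in Tdg_KO and 93.6 in Tdg_WT, and cDC2-like cells at the bottom, with 69.0 in Tdg_KO and 71.0 in Tdg_WT.

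The DM genes encode the peptide exchange factor, with 1 alpha gene, H2-DMa, and 2 beta genes, H2-DMb1 and H2-DMb2, which differed by cell type. In B-like cells H2-DMb2 had 347.8 CPM in Tdg_KO and 299.7 CPM in Tdg_WT, and H2-DMb1 84.4 and 81.8 CPM. Macrophage-like cells had it the other way, with H2-DMb2 at 52.5 CPM in Tdg_KO and 52.9 CPM in Tdg_WT and H2-DMb1 at 757.8 and 554.7 CPM. H2-DMb2 thus took 80.5% (76.8 to 83.8) of the UMIs of both beta genes in B-like cells of Tdg_KO and 78.6% (75.3 to 81.6) in those of Tdg_WT. In macrophage-like cells its share was 6.47% (4.90 to 8.36) in Tdg_KO and 8.71% (6.53 to 11.3) in Tdg_WT, and in cDC2-like cells 23.0% in Tdg_KO and 18.1% in Tdg_WT. Migratory DC-like cells lay between, with 55.0% (47.8 to 62.0) in Tdg_KO and 67.7% (58.9 to 75.6) in Tdg_WT.

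The split between the beta genes rests on reads that tell close copies apart. Their transcripts are 94.6% identical over the aligned bases, and 89.2% over the last 500 bases, where 3′ tags fall. No 90-base window of the last 500 bases of H2-DMb1 was found in H2-DMb2, while 15.9% of windows of the whole transcript were. The deposited counts do not show how reads that fit both genes were treated, so the shares are uncertain to that extent. By barcode, H2-DMb2 was detected in 83.4% and H2-DMb1 in 36.8% of B-like barcodes of Tdg_KO, and in 79.9% and 35.2% of those of Tdg_WT.

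The DO genes H2-Oa and H2-Ob, whose product restrains DM, were highest in B-like cells among the antigen-presenting types. H2-Ob had 336.8 CPM there in Tdg_KO and 367.2 CPM in Tdg_WT, and H2-Oa 130.9 CPM in Tdg_KO and 146.0 CPM in Tdg_WT. Per 100 UMIs of the 3 DM genes, the DO genes had 64.6 UMIs in B-like cells of Tdg_KO and 75.8 in those of Tdg_WT. The same ratio was 19.3 in Tdg_KO and 15.9 in Tdg_WT for migratory DC-like cells, 9.16 and 8.22 for cDC1-like, 7.87 and 7.45 for cDC2-like, 1.75 and 2.19 for macrophage-like and 1.56 and 1.46 for monocyte-like cells. The order of these 6 types was the same in each library.

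Ciita, the transactivator gene, was sparse everywhere. Its highest level was in cDC1-like cells, at 107.7 CPM in Tdg_KO and 78.4 CPM in Tdg_WT, from 54 and 27 UMIs. Macrophage-like cells, for all their chain gene UMIs, had 35.0 CPM of Ciita in Tdg_KO and 24.4 CPM in Tdg_WT, from 36 and 23 UMIs. In B-like cells Ciita had 43.9 CPM in Tdg_KO and 43.4 CPM in Tdg_WT, and in the 7 lymphocyte types other than B it did not pass 2.17 CPM.

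**Figure D2:**
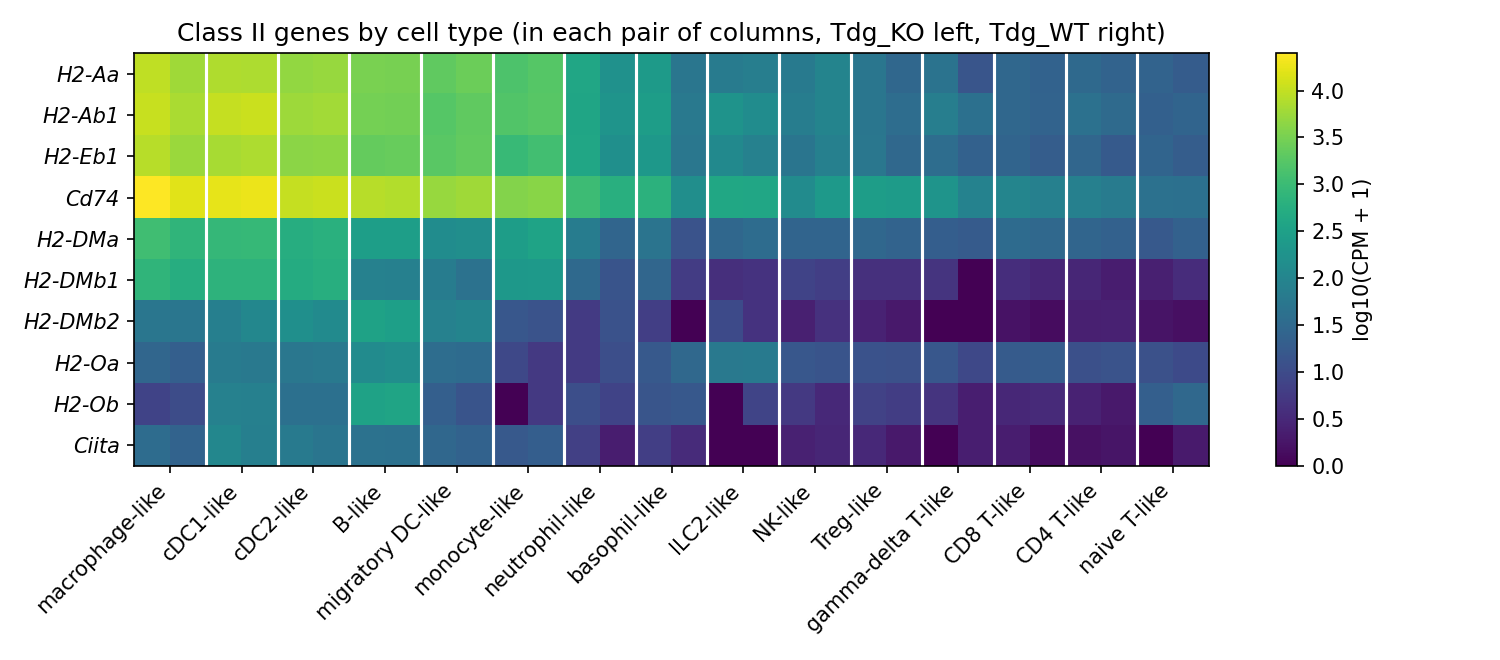
Level of each class II gene (rows) by cell type (pairs of columns, Tdg_KO left and Tdg_WT right), as the log10 of CPM plus 1. H2-DMb2 and H2-Ob are brightest in the B-like columns, and Ciita is dark in the lymphocyte columns other than B.

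Macrophage-like cells had the largest ratio of the 6 antigen-presenting types. The summed ratio was 1.57 (1.55 to 1.60), from 290 Tdg_KO and 239 Tdg_WT cells with median depths of 2886 and 3600 UMIs. A member was called where it had at least 50 UMIs over both libraries and its ratio was at least 1.5-fold either way. Of 8 members so measured, 5 were called higher (H2-Aa 1.56, H2-Ab1 1.54, H2-Eb1 1.58, H2-DMa 1.51 and Cd74 1.61) and 0 lower, where 14.8% of all 3288 genes measured in these cells were called higher and 5.93% lower. The members' median log2 ratio was 0.61 and that of all genes 0.08. H2-DMb1 had a ratio of 1.37 (1.22 to 1.53), Ciita of 1.44 (0.828 to 2.54) and H2-DMb2 of 0.991 (0.662 to 1.49). H2-Oa and H2-Ob had too few UMIs to be measured, with 27.2 and 6.80 CPM in Tdg_KO and 20.1 and 9.53 CPM in Tdg_WT.

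The macrophage-like cells came from a pair of clusters that the libraries filled unequally. The cluster led by the complement genes C1qa, C1qb and C1qc had 222 Tdg_KO and 114 Tdg_WT cells and a summed class II level of 65347 CPM in Tdg_KO and 52570 CPM in Tdg_WT. The cluster led by Arg1 and Spp1 had 68 Tdg_KO and 125 Tdg_WT cells, with 27513 CPM in Tdg_KO and 20918 CPM in Tdg_WT. The cluster higher in class II thus held most of the Tdg_KO cells and a minority of the Tdg_WT cells. Within the clusters the ratio was smaller, 1.24 (1.22 to 1.26) in the C1q cluster and 1.32 (1.28 to 1.36) in the Arg1 and Spp1 cluster. Within neither cluster was any measured member called, where 7.01% of genes were called higher and 6.93% lower in the first, and 11.8% and 6.77% in the second.

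Within the C1q cluster Cd74 had 29158 CPM in Tdg_KO and 23245 CPM in Tdg_WT, a ratio of 1.25 (1.23 to 1.28). H2-DMb1 there had 894.1 CPM in Tdg_KO and 875.8 CPM in Tdg_WT, a ratio of 1.02 (0.899 to 1.16), and Ciita 41.6 and 43.8 CPM. In the Arg1 and Spp1 cluster Cd74 had 13087 CPM in Tdg_KO and 9158 CPM in Tdg_WT, a ratio of 1.43 (1.37 to 1.49). The chain genes and Cd74 were higher in Tdg_KO in each cluster, beyond counting error, while the intervals of H2-DMb1 in each cluster included 1. By barcode, the class II share of all UMIs had a 10th percentile, median and 90th percentile of 0.632%, 5.40% and 10.6% in macrophage-like barcodes of Tdg_KO, and of 0.100%, 2.83% and 8.25% in those of Tdg_WT.

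When the 3 mixed clusters without a name were given the names their markers point to, a choice made after the data were seen, the summed macrophage-like ratio fell to 1.13. The members' ratios then ran from 1.04 for H2-DMa to 1.15 for H2-Eb1 among the 5 called above, with H2-DMb1 at 0.987. Those 3 clusters had 12528 CPM in Tdg_KO and 9898 CPM in Tdg_WT, and 91.7% and 77.7% of their barcodes carried genes of more than 1 lineage. Without the barcodes of mixed lineage in the named clusters the ratio was 1.61.

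**Figure D3:**
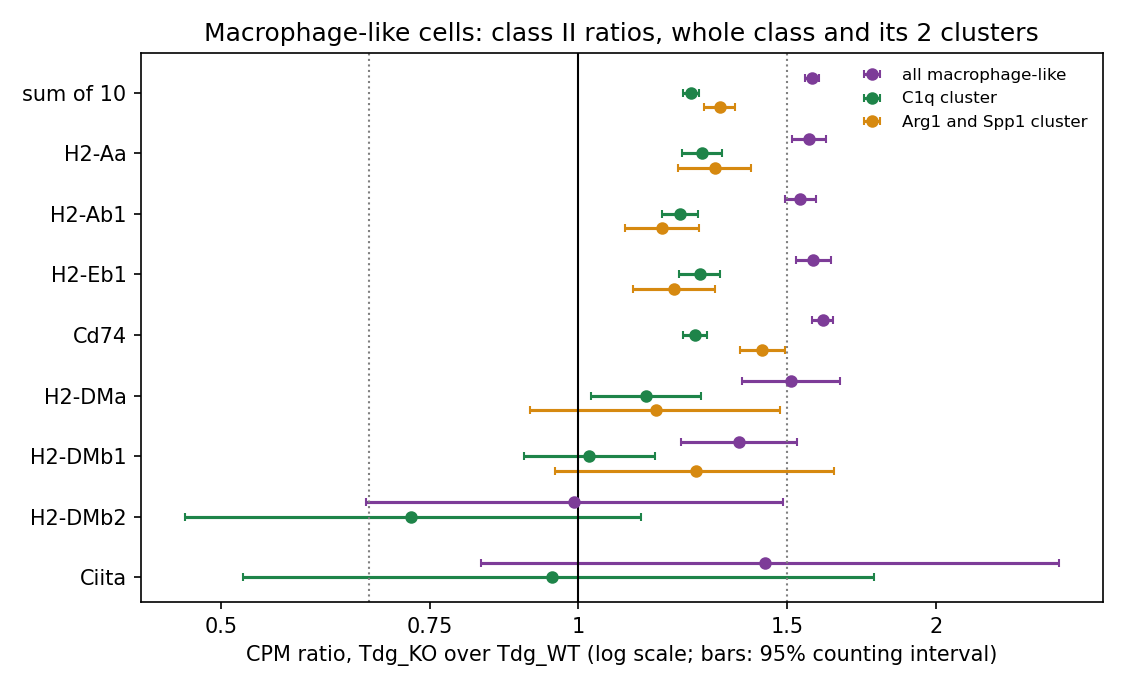
Ratio of CPM, Tdg_KO over Tdg_WT (log axis), of the summed class II level and of each measured member in all macrophage-like cells and in their 2 clusters; bars are 95% intervals of counting error and dotted lines mark 1.5-fold either way. The class as a whole lies to the right of both clusters for the chain genes, Cd74 and H2-DMa; H2-DMb2 and Ciita were under 50 UMIs in the Arg1 and Spp1 cluster.

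The dendritic and B types differed little between the libraries. In cDC1-like cells (64 Tdg_KO and 48 Tdg_WT cells) the summed ratio was 0.941 (0.922 to 0.960), and 0 of 10 members were called, where 10.7% of genes were called higher and 4.42% lower. In cDC2-like cells (255 and 202 cells) the ratio was 0.939 (0.931 to 0.947), and 0 of 10 members were called, where 6.63% of genes were called higher and 1.74% lower. The largest member ratio there was that of Ciita, with 62.6 CPM in Tdg_KO and 49.4 CPM in Tdg_WT, 1.27 (1.05 to 1.54). B-like cells (193 and 298 cells) had a ratio of 1.03 (1.01 to 1.05) and 0 of 10 members called, where 4.97% of genes were called higher and 3.53% lower. Among their members H2-DMb2 had the ratio farthest from 1, 1.16 (1.02 to 1.32). Under other settings the ratios ran from 0.835 to 1.005 in cDC1-like, from 0.887 to 1.002 in cDC2-like and from 0.995 to 1.10 in B-like cells, so their direction was not stable.

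The cDC2-like clusters differed from each other more than the libraries did. The cluster with the most cells (138 Tdg_KO and 79 Tdg_WT) had 21961 CPM in Tdg_KO and 21035 CPM in Tdg_WT, and 54.3% and 39.2% of its barcodes were of mixed lineage. Of its 10 measured members 0 were called, where 5.04% of genes were called higher and 2.36% lower. Another cluster with the same marker Cd209a and almost no mixed barcodes (42 and 66 cells) had 45527 CPM in Tdg_KO and 48516 CPM in Tdg_WT. Here too 0 of 10 members were called, where 6.94% of genes were called higher and 5.27% lower. The median depth was 23228 and 23420 UMIs in the first and 13283 and 12322 UMIs in the second. The other cDC2-like clusters did not follow their share of mixed barcodes, with 15038 CPM in Tdg_KO and 10910 CPM in Tdg_WT at 0% mixed in one, and 46415 and 36429 CPM at 25% and 16.7% mixed in another. The part of RNA from other cells in these levels was not tested. H2-DMb1 is among the leading genes of both clusters led by Cd209a, although no member was used to make them.

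In migratory DC-like cells (82 and 89 cells) the summed ratio was 0.883 (0.862 to 0.904), and below 1 in all 11 alternatives run. H2-DMb1 was the 1 member of 9 called higher, with 70.2 CPM in Tdg_KO and 44.8 CPM in Tdg_WT, a ratio of 1.57 (1.07 to 2.32), where 13.8% of genes were called higher and 3.56% lower. The chain genes ran the other way, H2-Aa with 2155 CPM in Tdg_KO and 2584 CPM in Tdg_WT, H2-Ab1 with 1733 and 2105 CPM and H2-Eb1 with 1885 and 2173 CPM, none past 1.5-fold. Monocyte-like cells (77 and 134 cells) had a ratio of 0.883 (0.857 to 0.911), which ran from 0.752 to 1.13 under other settings, and 0 of 6 measured members were called, where 7.82% of genes were called higher and 8.09% lower. H2-Eb1 had 924.7 CPM in Tdg_KO and 1183 CPM in Tdg_WT there, and H2-DMa 276.5 and 355.4 CPM. Their barcodes were spread widely: the median class II share was 0.109% in Tdg_KO and 0.169% in Tdg_WT, while the 90th percentile was 3.27% and 3.70%.

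The spread of class II UMIs over barcodes differed between cell types. In macrophage-, cDC1-, cDC2- and B-like cells most barcodes carried them at a high share: at least 1% of all UMIs were class II in 86.6% of Tdg_KO and 70.3% of Tdg_WT macrophage-like barcodes, and in 87.6% and 84.6% of B-like barcodes. The 5% of barcodes with the most class II UMIs held 10.2% of the type's class II UMIs in B-like cells of Tdg_KO and 11.5% in those of Tdg_WT. In neutrophil-like cells they held 87.0% in Tdg_KO and 77.1% in Tdg_WT, in basophil-like cells 89.6% and 62.7%, and in NK-like cells 57.7% and 73.9%. T cell types lay between, from 33.3% to 54.8% in Tdg_KO and from 29.3% to 41.7% in Tdg_WT. Monocyte-like cells, with 36.5% in Tdg_KO and 32.3% in Tdg_WT, and migratory DC-like cells, with 27.9% and 35.6%, were near the T cell types, so this share does not set all antigen-presenting types apart.

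**Figure D4:**
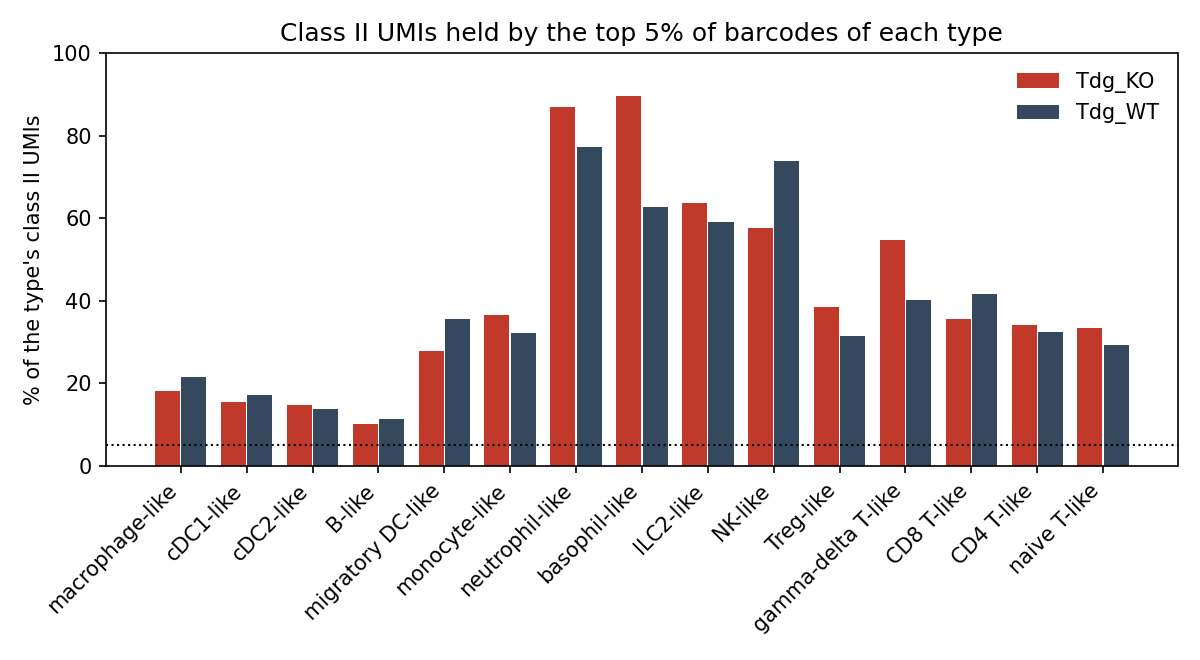
Share of each cell type's class II UMIs held by the 5% of its barcodes with the most class II UMIs, Tdg_KO left and Tdg_WT right of each pair; the dotted line marks an even spread. Bars are low in B-like cells (10.2% and 11.5%) and high in neutrophil-like cells (87.0% and 77.1%).

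Neutrophil-like cells had all 5 measured members called higher, where 22.3% of genes were called higher and 6.91% lower. H2-Aa had 399.9 CPM in Tdg_KO and 169.7 CPM in Tdg_WT, and Cd74 1038 and 589.5 CPM. At least 1% of UMIs were class II in only 8 of 241 Tdg_KO barcodes and 12 of 686 Tdg_WT barcodes. In those, the summed phagocyte marker genes had 6157 CPM in Tdg_KO and 8188 CPM in Tdg_WT. Barcodes outside the top 5% had 905.9 and 959.4 CPM of these genes. Their class II level was 388.2 CPM in Tdg_KO and 304.9 CPM in Tdg_WT, and the summed ratio without the top 5%, a setting added after the data were seen, was 1.27, against 2.01 with them. Without the barcodes of highest doublet score it was 4.26, with 2855 CPM in Tdg_KO and 669.5 CPM in Tdg_WT.

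Among neutrophil-like barcodes without a UMI of a phagocyte or B gene, the 3 chain genes together had 168.8 CPM in Tdg_KO and 169.8 CPM in Tdg_WT. In the remaining neutrophil-like barcodes they had 1485 CPM in Tdg_KO and 725.8 CPM in Tdg_WT. These sets differed in depth as well, with medians of 965 and 1210 UMIs without such genes and 2848 and 2667 UMIs with them. Lyz2, which neutrophils also make, gave 641.2 of the phagocyte CPM in Tdg_KO and 559.5 in Tdg_WT outside the top 5% of barcodes, so the split does not separate admixed RNA from their own. C1qa, a macrophage gene, had 859.4 CPM in Tdg_KO and 744.4 CPM in Tdg_WT in the barcodes with at least 1% class II UMIs, against 10.2 and 15.1 CPM outside the top 5%. In basophil-like cells (41 and 75 cells) few barcodes held most class II UMIs as well: 4 of 4 measured members were called higher, where 28.6% of genes were called higher and 10.6% lower, and 1 barcode held 53.8% of the class II UMIs in Tdg_KO and 1 held 52.0% in Tdg_WT. Without the top 5% of barcodes their level was 210.2 CPM in Tdg_KO and 149.2 CPM in Tdg_WT, and the ratio 1.41 instead of 4.09.

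NK-like cells were the type with members called lower. The summed ratio was 0.660 (0.626 to 0.696), from 990 Tdg_KO and 837 Tdg_WT cells. H2-Aa had 61.6 CPM in Tdg_KO and 97.3 CPM in Tdg_WT, H2-Eb1 49.7 and 80.4 CPM, and Cd74 130.4 and 230.8 CPM. These 3 of 7 measured members were called lower and 0 higher, where 3.38% of genes were called higher and 1.51% lower. H2-DMa (25.4 CPM in each library) and H2-Oa (14.6 CPM in Tdg_KO and 12.97 CPM in Tdg_WT) were not called.

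Much of the difference lay in few barcodes. Without the top 5% of NK-like barcodes the level was 171.1 CPM in Tdg_KO and 157.1 CPM in Tdg_WT. The summed ratio turned to 1.09, with H2-Aa at 1.38, H2-Ab1 at 1.02 and H2-Eb1 at 1.24. That setting was added after the data were seen. The ratio of Cd74 did not turn, and ran from 0.519 to 0.965 over all 12 alternatives, this setting among them. Barcodes with at least 0.3% class II UMIs, a limit also chosen after the data were seen, numbered 14 in Tdg_KO and 21 in Tdg_WT, and held 38.8% of the NK-like class II UMIs in Tdg_KO and 61.0% in Tdg_WT. The NK-like cluster led by Gzmc held 9 of the 14 and 18 of the 21, which was 3.49% of its Tdg_KO and 7.35% of its Tdg_WT barcodes. That cluster had a summed ratio of 0.515 (0.483 to 0.549), with 578.2 CPM in Tdg_KO and 1123 CPM in Tdg_WT, and 4 of its 6 measured members (H2-Aa, H2-Ab1, H2-Eb1 and Cd74) were called lower, where 4.96% of its genes were called higher and 2.32% lower. The other NK-like clusters ran the other way, with 237.3 CPM in Tdg_KO and 157.5 CPM in Tdg_WT in the one led by Klra4, and 226.5 and 138.4 CPM in the one led by Gzma.

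The median depth of these NK-like barcodes was 7554 UMIs in Tdg_KO and 6383 UMIs in Tdg_WT, near the 5938 and 5414 UMIs of the other NK-like barcodes. No phagocyte or B gene was found in 9 of the 14 and 12 of the 21, against 673 of 976 and 628 of 816 of the other NK-like barcodes, and 2 of the 14 and 0 of the 21 were of mixed lineage. Over all NK-like barcodes without such a gene, the chain genes had 172.0 CPM in Tdg_KO and 195.8 CPM in Tdg_WT, and in those with one 200.9 and 476.8 CPM. H2-Aa had 57.6 CPM in Tdg_KO and 68.5 CPM in Tdg_WT without such genes, and H2-Eb1 46.9 and 58.0 CPM, neither past 1.5-fold. Cd74 had 102.5 CPM in Tdg_KO and 156.8 CPM in Tdg_WT in the same barcodes, still lower by more than 1.5-fold. In the 14 and 21 barcodes Flt3 and Xcr1, genes of dendritic cells, and Cd79a, a B cell gene, were at 0. Cd209a was found in 1 of the 14 and 0 of the 21. These genes were rare in the other 976 and 816 NK-like barcodes too, with Flt3 in 6 and 2, Xcr1 in 1 and 1 and Cd79a in 6 and 6. Ctss and Cd83, genes that presenting cells use, were higher in the 14 and 21 barcodes. Ctss had 186.1 CPM in Tdg_KO and 182.1 CPM in Tdg_WT, against 54.4 and 50.9 CPM in the other NK-like barcodes. Cd83 had 96.5 and 158.6 CPM, against 27.9 and 31.2 CPM. Ncr1, the activating receptor gene of NK cells and their innate relatives, was detected in 12 of the 14 and 10 of the 21. In the other NK-like barcodes it was detected in 681 of 976 and 561 of 816.

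In the NK-like barcodes with at least 0.3% class II UMIs Cd74 had 60.8 UMIs per 100 chain UMIs in Tdg_KO and 84.6 in Tdg_WT, and H2-DMa 3.35 in Tdg_KO and 2.85 in Tdg_WT, near the range of the antigen-presenting types. H2-DMb2 had 6 of its 10 NK-like UMIs in these barcodes in Tdg_KO and 17 of its 18 in Tdg_WT. Other genes were looked up there after the values were seen. Il7r, the interleukin 7 receptor gene, had 179.2 CPM in Tdg_KO and 481.8 CPM in Tdg_WT, against 88.3 and 108.4 CPM in the other NK-like barcodes. Eomes, a transcription factor gene of NK cells, had 124.1 CPM in Tdg_KO and 29.4 CPM in Tdg_WT, against 276.7 and 286.8 CPM, and Gzma 668.7 and 464.1 CPM, against 3829 and 4761 CPM.

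In T cells the summed ratio was above 1 in 4 of the 5 types. It was 1.24 (1.18 to 1.31) in Treg-like cells, 1.25 (1.13 to 1.39) in CD4 T-like cells, 1.19 (1.07 to 1.34) in CD8 T-like cells and 2.01 (1.66 to 2.44) in gamma-delta T-like cells. Of the measured members, 2 of 7 were called higher in Treg-like cells (H2-Aa and H2-Eb1; 4.25% of genes higher, 2.12% lower), 1 of 6 in CD4 T-like cells (H2-Eb1; 4.49% and 2.09%) and 4 of 4 in gamma-delta T-like cells (8.14% and 2.54%). None was called lower in these types, and 0 were called in CD8 T-like (4.78% and 1.87%), naive T-like (4.18% and 3.57%) and ILC2-like cells (13.2% and 4.04%). Over all 15 types, 22 of 101 pairs of member and type were called higher and 3 lower, where 7.85% of all such pairs of genes were called higher and 3.33% lower.

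The gamma-delta T-like ratio ran from 1.53 to 2.09 under the 12 alternatives. In gamma-delta T-like barcodes without a phagocyte or B gene the summed level was 224.9 CPM in Tdg_KO and 138.6 CPM in Tdg_WT, and in the others 575.4 and 312.9 CPM. None of their 9 Tdg_KO and 6 Tdg_WT barcodes highest in class II held 3 phagocyte genes. At least 1 such gene was found in 55.6% and 33.3% of them, against 29.0% and 19.2% of the other gamma-delta T-like barcodes. Markers of cDC2 had 136.8 CPM in the 9 Tdg_KO barcodes, against 3.97 CPM in the others, and 0 CPM in both sets of Tdg_WT. At least 3 of these markers were held by 1 of the 9. The part of admixed RNA was not tested. Treg-like barcodes without a phagocyte or B gene had 139.3 CPM of the chain genes in Tdg_KO and 104.8 CPM in Tdg_WT.

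In CD8 T-like cells 9 of the 18 barcodes highest in class II held at least 3 phagocyte genes in Tdg_KO, and 1 of 16 in Tdg_WT. Without mixed-lineage barcodes the CD8 T-like ratio turned to 0.970, and with the mixed clusters named by their markers it was 2.16. At least 1 class II UMI was found in 73.1% of CD8 T-like barcodes of Tdg_KO and 58.3% of Tdg_WT, at median depths of 8002 and 7068 UMIs. With each barcode thinned to 1000 UMIs, which left out 2 and 3 shallower barcodes, the shares were 17.3% (13.5 to 21.6) in Tdg_KO and 12.9% (9.35 to 17.1) in Tdg_WT. Naive T-like barcodes, at depths of 6160 and 6034 UMIs, had shares of 59.4% and 56.9% as deposited, and 14.4% (9.83 to 19.96) and 15.8% (11.8 to 20.5) thinned. The intervals of the thinned CD8 T-like and naive T-like shares overlapped.

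Treg-like cells had a higher share, and Cd74 was their most abundant member. Thinned to 1000 UMIs, 34.0% (30.6 to 37.5) of Treg-like barcodes of Tdg_KO and 31.3% (27.5 to 35.2) of Tdg_WT had a class II UMI. Cd74 had 285.8 CPM in Tdg_KO and 261.5 CPM in Tdg_WT, a ratio of 1.09 (1.02 to 1.17) that turned to 0.983 after thinning, while H2-Aa had 52.6 and 28.3 CPM. Per 100 chain UMIs this made 179.4 UMIs of Cd74 in Tdg_KO and 277.5 in Tdg_WT, 2.33 and 3.54 times the value over the antigen-presenting types. In Treg-like barcodes without a phagocyte or B gene Cd74 had 309.2 CPM in Tdg_KO and 268.5 CPM in Tdg_WT, and in the others 269.2 and 252.8 CPM. Cd74 was thus no lower in the barcodes free of those genes. Cd74 was above the antigen-presenting range of 69.0 to 97.7 also in CD8 T-like (121.0 in Tdg_KO and 126.5 in Tdg_WT), gamma-delta T-like (116.6 and 112.1) and ILC2-like cells (113.4 and 136.0). This was not limited to lymphocytes. Plasmacytoid DC-like cells, not among the types of that range, had 108.3 in Tdg_KO and 121.1 in Tdg_WT, and neutrophil-like cells 87.2 and 115.1.

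H2-DMa and H2-Oa were higher relative to the chain genes in lymphocytes than in antigen-presenting types. Over the 7 lymphocyte types other than B, H2-DMa ran from 15.9 to 33.5 CPM in Tdg_KO and from 17.3 to 34.7 CPM in Tdg_WT, at between 7.87 and 45.9 UMIs per 100 chain UMIs. The antigen-presenting types had 2.18 to 7.52. H2-Oa had 4.73 to 27.7 per 100 chain UMIs in lymphocytes and 0.0942 to 1.72 in antigen-presenting types. Its highest level outside B-like cells and dendritic cells was in ILC2-like cells, at 58.1 CPM in Tdg_KO and 62.4 CPM in Tdg_WT, from 20 and 18 UMIs.

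In CD8 T-like barcodes without a phagocyte or B gene, the chain genes together had 47.2 CPM in Tdg_KO and 63.3 CPM in Tdg_WT, against 121.7 and 69.9 CPM in the others. H2-Oa had 19.2 CPM in Tdg_KO and 13.5 CPM in Tdg_WT in the first, and 15.9 and 27.1 CPM in the others. H2-DMa had 27.4 and 25.8 CPM, against 40.1 and 38.3 CPM. The H2-Oa level without such genes over that with them was 1.21 (0.696 to 2.12) in Tdg_KO and 0.498 (0.269 to 0.921) in Tdg_WT. Both genes were also lower without such genes in some other types, with ratios of 0.309 (0.151 to 0.613) for H2-Oa in CD4 T-like cells, 0.318 (0.102 to 0.856) for H2-DMa in gamma-delta T-like cells and 0.340 (0.124 to 0.869) for H2-DMa in naive T-like cells, all of Tdg_KO. In NK-like cells H2-DMa had 0.703 (0.518 to 0.956) in Tdg_KO and 0.684 (0.480 to 0.984) in Tdg_WT, below 1 in each library. H2-Oa there had 0.838 (0.556 to 1.27) in Tdg_KO and 0.729 (0.439 to 1.235) in Tdg_WT. In Treg-like cells H2-DMa had 1.13 (0.862 to 1.49) in Tdg_KO and 1.20 (0.820 to 1.77) in Tdg_WT. The part of admixed RNA in H2-DMa and H2-Oa was not tested beyond these values.

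H2-Ob, the other DO gene, was at 20.2 CPM in Tdg_KO and 29.5 CPM in Tdg_WT in naive T-like cells, and at 1.67 and 1.00 CPM in CD4 T-like cells. That came from 28 and 55 UMIs in naive T-like cells. It amounted to 28.3 UMIs per 100 chain UMIs in Tdg_KO and 47.8 in Tdg_WT, 56.6 and 60.0 times the value over the antigen-presenting types. In naive T-like barcodes without a phagocyte or B gene H2-Ob had 16.2 CPM in Tdg_KO and 30.4 CPM in Tdg_WT, and in the others 27.1 and 26.6 CPM. The chain genes differed between the same sets, with 41.5 CPM in Tdg_KO and 43.9 CPM in Tdg_WT without such genes, and 122.0 and 117.7 CPM with them.

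Genes on the opposite strand overlap H2-DMa and H2-Oa, and the sources used here do not state whether counting used the strand. Brd2, opposite H2-DMa, had 212.7 CPM in Tdg_KO and 176.2 CPM in Tdg_WT in NK-like cells, and H2-DMa had 9.65 to 28.6 UMIs per 100 Brd2 UMIs over the 7 lymphocyte types, against 2040 in Tdg_KO and 1504 in Tdg_WT in macrophage-like cells. A share of Brd2 reads in the lymphocyte values of H2-DMa was not tested. BC051537, opposite H2-Oa, had at most 3 UMIs in any of these lymphocyte types of either library, where H2-Oa had 16 to 102 UMIs in Tdg_KO and 6 to 72 in Tdg_WT.

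**Figure D5:**
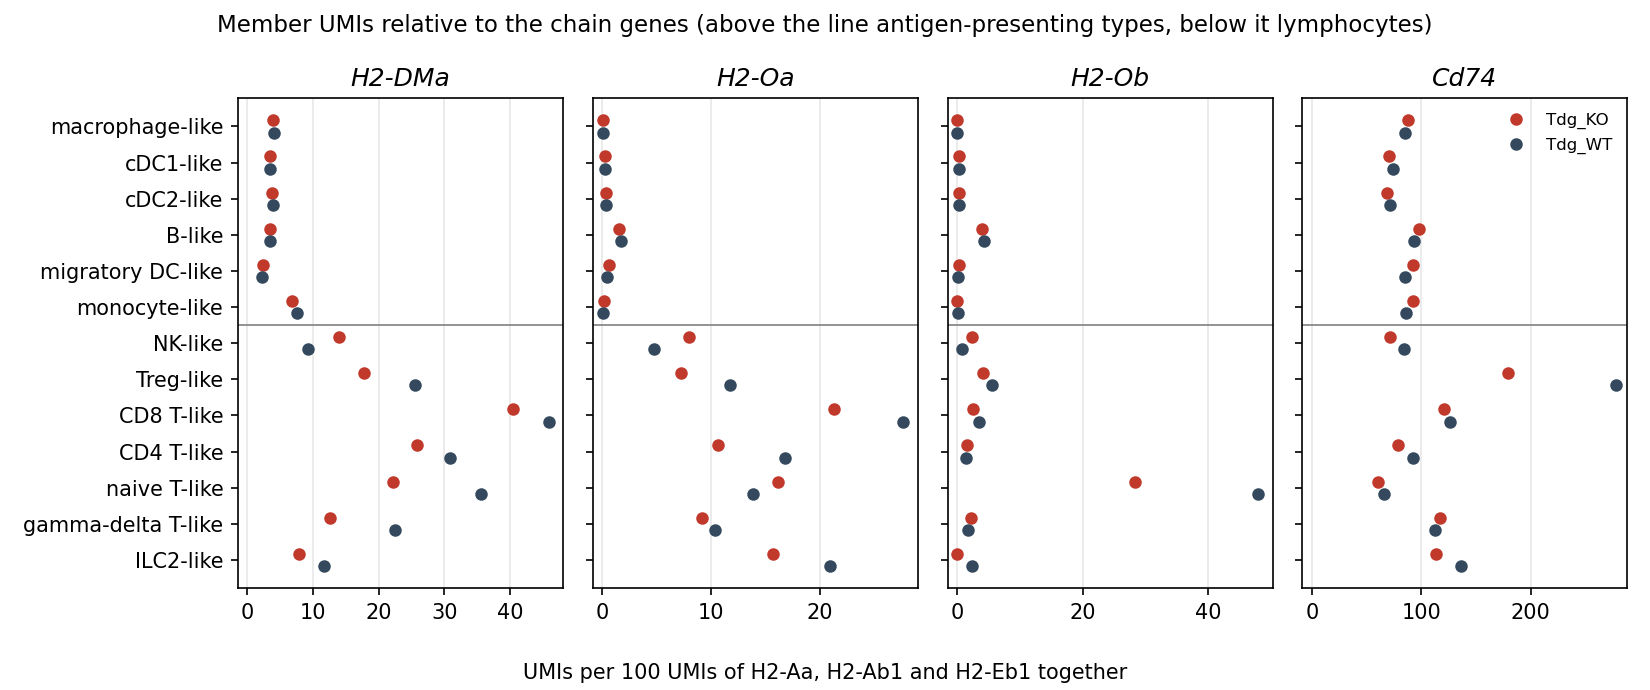
UMIs of H2-DMa, H2-Oa, H2-Ob and Cd74 per 100 UMIs of the 3 chain genes in the 6 antigen-presenting types (above the line) and the 7 lymphocyte types other than B (below it), Tdg_KO above Tdg_WT. H2-DMa and H2-Oa lie to the right in all 7 lymphocyte types, H2-Ob in naive T-like cells (28.3 and 47.8) and Cd74 farthest in Treg-like cells (179.4 and 277.5).

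Other genes of the pathway had ratios on either side of 1 in macrophage-like cells. Of 12 genes of endolysosomal antigen processing, 0 were called, against 14.8% higher and 5.93% lower over all genes, with a median log2 ratio of 0.21. Ctss, the protease that cleaves the invariant chain, had 4608 CPM in Tdg_KO and 3480 CPM in Tdg_WT, a ratio of 1.32 (1.27 to 1.39), and Ctsl, another such protease, 632.4 and 888.1 CPM, 0.712 (0.642 to 0.790).

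The 2 measured genes of class II turnover were called higher in macrophage-like cells, as were 14.8% of all genes, with 5.93% lower. March1, the ubiquitin ligase that sends class II for degradation, had 45.7 CPM in Tdg_KO and 16.9 CPM in Tdg_WT, and Cd83, which opposes it, 62.2 and 31.8 CPM, from 47 and 16 UMIs and from 64 and 30 UMIs. Cd83 had 203.4 CPM in Tdg_KO and 92.9 CPM in Tdg_WT in cDC1-like cells as well, with the chain genes not called. Of 3 costimulatory ligand genes Cd274, which encodes PD-L1, was called lower in macrophage-like cells, with 23.3 CPM in Tdg_KO and 45.5 CPM in Tdg_WT. Mif encodes the ligand of the invariant chain at the cell surface, and it was called lower as well, with 1326 CPM in Tdg_KO and 2473 CPM in Tdg_WT, 0.536 (0.501 to 0.574). All these macrophage-like pathway values are over the whole class, whose clusters the libraries filled unequally. The part of that unequal filling in them was not tested.

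Mif was also called lower in cDC1-like (400.8 CPM in Tdg_KO and 734.8 CPM in Tdg_WT), migratory DC-like (304.1 and 514.2 CPM) and monocyte-like cells (190.5 and 337.6 CPM), against which Cd74 had ratios of 0.907, 0.921 and 0.921. In monocyte-like cells Ctsl was called lower too, with 104.5 CPM in Tdg_KO and 234.5 CPM in Tdg_WT, while Cd40, a costimulatory receptor gene, had 86.0 and 38.6 CPM. In B-like cells H2-Eb2, a chain gene near H2-Eb1, had 61.6 CPM in Tdg_KO and 60.9 CPM in Tdg_WT.

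Of the members, Cd74 and the chain genes followed the summed level closely over the 30 combinations of cell type and library, with Pearson's r of log2 values between 0.996 and 0.997. H2-DMa had 0.963, H2-DMb1 0.948, Ciita 0.937 and H2-DMb2 0.883, while H2-Oa and H2-Ob had 0.563 and 0.558. Among 10016 other genes, the highest were Ctsh, a lysosomal protease gene (0.947), Ifi30, which encodes the lysosomal thiol reductase that prepares antigens (0.942), Unc93b1, which brings Toll-like receptors to endosomes (0.922), and Ly86 (0.919), followed by Cnpy3, Plekho1, Lmo2, Fgd2, Erp29 and Pld4 with 0.896 to 0.883. The points share libraries and depth, so these are descriptions. Ctsh had 847.1 CPM in Tdg_KO and 805.6 CPM in Tdg_WT in macrophage-like cells and 2 and 1.62 CPM in NK-like cells.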

How the data were processed

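The authors deposited whole-number UMI counts for each library, made with Cell Ranger 6.0.1 per the file headers, for barcodes called as cells; the submitters' processing notes also name Seurat and mm10. Annotation and strand setting: not given in the sources used here. Barcodes with at least 200 genes and at most 10% mitochondrial counts were kept and clustered in scanpy 1.11.5 (2000 variable genes without the members, 30 components, 15 neighbours, Leiden resolution 1), in 2 rounds. From 22 marker sets 28 clusters were named; 9 stayed unnamed because markers were weak (score under 0.5) or fewer than 3, genes of another type, proliferation or interferon led, or at least 50% of barcodes were of mixed lineage, rules set after the data were seen. Scrublet at an expected rate of 0.05 called 0 barcodes. Counts were summed per type and library and divided by the total (CPM). Ratios have conditional Poisson intervals and shares Clopper-Pearson intervals. All members were named, and of each pathway list at most the 2 genes with most UMIs and the 2 most extreme ratios; like-pattern genes were the 10 of highest r of log2(CPM + 10), among genes with at least 200 UMIs. The members and lists were chosen with earlier results of these data known. March1 and March8 were listed under these names; H2-Ea was not listed. Alternatives are given in the closing section. The transcription factor and interferon gamma lists hold a gene that is not reported here, and their counts are left out.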

Additional observations from a re-analysis of the deposited data

Results flagged for a closer look

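In each case below 1 library stood against another, and the difference was not tested. The summed class II ratios of cDC1-, cDC2- and B-like cells lay between 0.939 and 1.03, and that of migratory DC-like cells was 0.883. Macrophage-like cells had 1.574, neutrophil-like cells 2.011, basophil-like cells 4.085 and gamma-delta T-like cells 2.008, and NK-like cells 0.6598.

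Of the clusters without a name, which entered no comparison of the report, 2 had larger differences. A cluster led by Clu and Krt8, with 74 Tdg_KO and 68 Tdg_WT barcodes of median depth 1010 and 1096 UMIs, had 3833 CPM of class II in Tdg_KO and 475.8 CPM in Tdg_WT, a ratio of 8.055. In Tdg_KO 1 of its barcodes held 41.8% and 4 held 78.5% of these UMIs, and in Tdg_WT 1 held 21.0% and 4 held 64.1%. A cluster led by the histone gene Hist1h1b and other proliferation genes (51 and 49 barcodes) had 2777 CPM in Tdg_KO and 865.7 CPM in Tdg_WT, a ratio of 3.208, with 17.6% and 10.2% of its barcodes of mixed lineage. There 3 barcodes held 62.3% of the class II UMIs in Tdg_KO and 3 held 72.6% in Tdg_WT.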

How the results depend on the processing

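No paired analysis was possible because each group has 1 library. Over the alternatives that gave a value (11 for macrophage-like cells and 12 for the other types named here), the ratios of macrophage-like (1.13 to 1.62), neutrophil-like (1.27 to 4.26), basophil-like (1.41 to 4.17) and gamma-delta T-like cells (1.53 to 2.09) stayed above 1. Thinned to 1000 UMIs, the ratio was 1.004 in cDC1-like, 0.9153 in cDC2-like, 0.7844 in migratory DC-like and 0.7522 in monocyte-like cells, with 12 pairs of member and type called higher and 5 lower, and Cd74 in Treg-like cells at 0.9825. With cells weighted equally, cDC1-like had 1.005, migratory DC-like 0.7913 and monocyte-like 0.7897. At most 5% mitochondrial UMIs gave B-like 0.9953 and migratory DC-like 0.9202. Without mixed-lineage barcodes, macrophage-like had 1.614, cDC1-like 0.9895, cDC2-like 0.9689, migratory DC-like 0.9199, monocyte-like 0.8535 and CD8 T-like 0.9699. Totals without mitochondrial, ribosomal and class II UMIs gave cDC1-like 0.9134 and cDC2-like 0.9272. With class II genes among the variable genes, macrophage-like had 1.595, cDC1-like 0.8665, cDC2-like 0.9552 and monocyte-like 0.8245, with 5 pairs lower. Leiden resolution 0.5 gave macrophage-like 1.624, cDC2-like 0.9658 and migratory DC-like 0.849, with 5 pairs lower, and no monocyte-like cluster. Resolution 2 gave macrophage-like 1.614, cDC1-like 0.8346, cDC2-like 1.002, migratory DC-like 0.9206, monocyte-like 1.071 and Treg-like Cd74 0.9902. Without the highest Scrublet scores, cDC2-like had 0.8867, B-like 1.098 and monocyte-like 0.8475, with 0 pairs lower. Without the barcode highest in class II, cDC1-like had 0.9632, migratory DC-like 0.9062 and monocyte-like 0.8383. Of the settings chosen after seeing the data, naming mixed clusters by markers gave macrophage-like 1.132, monocyte-like 1.129 and macrophage-like H2-DMb1 0.9871. Leaving out the top 5% of barcodes gave NK-like 1.089, with H2-Aa 1.379, H2-Ab1 1.016 and H2-Eb1 1.24. Cd74 in NK-like cells stayed below 1 throughout, from 0.5191 to 0.9652. A minimum of 20 UMIs gave 6 pairs lower, and a minimum of 1 UMI 40 higher and 8 lower. The causes were not tested. No libraries could be left out, and members under 50 UMIs were too shallow for a ratio.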

Other observations

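Among the clusters without a name, proliferating cells of the phagocyte clustering (71 Tdg_KO and 40 Tdg_WT cells, led by Pclaf and Birc5) had 39706 CPM of class II in Tdg_KO and 29520 CPM in Tdg_WT, a level between those of cDC2- and macrophage-like cells. An unnamed lymphoid cluster led by Klra1 and Klra6 (488 and 332 cells) had 159.7 CPM in Tdg_KO and 162.2 CPM in Tdg_WT, near the 164.9 and 166.8 CPM of naive T-like cells.

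Plasmacytoid DC-like cells (52 and 25 cells) had 9.42 UMIs of H2-DMa per 100 chain UMIs in Tdg_KO and 11.2 in Tdg_WT, above the 6 antigen-presenting types compared, and 2.13 and 2.96 of H2-Oa. Of the DO genes, H2-Ob had 2 UMIs there in each library, while H2-Oa had 59 UMIs in Tdg_KO and 24 in Tdg_WT.

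The 3 barcodes highest in class II among ILC2-like cells held 63.6% of that type's class II UMIs in Tdg_KO and 59.2% in Tdg_WT, and none of them carried 3 phagocyte genes. The Tdg_KO ones had 315.9 CPM of cDC2 markers, against 6.46 CPM in the other ILC2-like barcodes, and the Tdg_WT ones 2120 CPM of migratory DC markers, against 259.8 CPM. These sums rest on few genes. In the Tdg_KO ones 5 of 7 cDC2 markers were at 0, and in the Tdg_WT ones 7 of 8 migratory DC markers. None of these barcodes held 3 markers of the set. Migratory DC markers were at 229.7 CPM in the Tdg_KO ones, against 516.8 CPM, and cDC2 markers at 0 in all ILC2-like barcodes of Tdg_WT.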
